A study of Mus musculus with 28 samples.

Results

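The genes described here are 9 histone deacetylases and the corepressor *Sin3a*. They were chosen by symbol, 10 of the 49477 genes listed in both count tables of the series, and all 10 passed the filter on low counts (10 or more on average per mouse), as did 16266 genes in all, the genes tested. *Hdac1*, *Hdac2*, *Hdac3* and *Hdac8* encode class I deacetylases, *Hdac4*, *Hdac5* and *Hdac9* class IIa, *Hdac6* class IIb and *Hdac11* the class IV enzyme. RNA was sequenced from the amygdala of 28 adult female C57BL/6J mice, an inbred strain that drinks ethanol readily, in 2 batches. The 10 Water mice had no access to ethanol, the 9 Acute Drinking mice had a single access to 20% ethanol, and the 9 Chronic Drinking mice had access to 20% ethanol every other day for a month. Tissue was taken the day after the single or last access began. Of these, 4 Water, 4 Acute and 3 Chronic mice belonged to the first batch and the other 6, 5 and 6 to the second.

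Histone deacetylases take acetyl groups off histone tails, which closes chromatin and lowers transcription at the genes they are brought to. HDAC1 and HDAC2 work as a catalytic pair inside the Sin3, NuRD and CoREST complexes, SIN3A is the scaffold of the first of these, and HDAC3 is the enzyme of the NCoR complex. Class IIa enzymes shuttle between cytoplasm and nucleus and bind MEF2 factors, HDAC6 deacetylates tubulin in the cytoplasm, and HDAC11 is a brain-rich enzyme that removes long fatty acyl groups. In the brain, deacetylases restrain activity-dependent transcription and memory, HDAC1 and HDAC2 are needed for oligodendrocyte differentiation, and deacetylase inhibitors alter ethanol drinking in rodents.

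Total counts per mouse lay between 20004380 and 22569562. Markers of the sampled tissue were present, with all 10 neuron markers and all 6 central amygdala markers measured, the lowest of the latter at a mean of 6.84 CPM (counts scaled to library size). Scores of other tissue varied between mice, since the mean log2 CPM of 8 striatal markers ran from 4.95 to 7.19 and that of 8 choroid plexus and ependymal markers from -0.26 to 5.45. None of the 30 group differences in 10 marker scores passed adjustment. The smallest p was that of the central amygdala score in Acute mice, 0.24 above Water (exact permutation p = 0.0243, adjusted p = 0.728). In whole tissue, fewer cells of a type and less RNA per cell cannot be told apart. *Hdac2* and *Sin3a* were picked by the study as hub genes and *Hdac11* stands in its gene lists, all from these same mice, so that their direction here is not independent evidence.

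In Chronic Drinking mice, *Sin3a* and *Hdac2* were lower and *Hdac11* was higher than in Water mice, by -7.81%, -6.83% and 6.25%, and with batch means removed all 9 Chronic mice lay on that side of the Water mean. For *Hdac8* all 9 lay above the Water mean too (edgeR p = 0.100). The share of all genes with such a count was not computed. The *Hdac11* difference came to 0.043 on the log2 scale (p = 0.161) with offsets for GC content and length, from 0.088 without them. None of the 10 genes passed the adjusted test of edgeR in any comparison, while ComBat-seq followed by DESeq2 called *Hdac2* and *Sin3a* in Chronic against Water mice (adjusted p = 0.0390 and 0.0435). At an unadjusted p under 0.05 there were 3 of 10 in Chronic against Water mice (1 higher, 2 lower), beside 10.5% of all genes tested (4.81% higher, 5.65% lower). In Acute against Water mice there was 1 of 10, higher, beside 9.52% of all genes (5.07% higher, 4.45% lower), and in Chronic against Acute mice 1 of 10, lower, beside 4.44% (1.95% higher, 2.5% lower). With adjustment over all genes tested, edgeR called 0.0184% of genes in Chronic against Water mice, which is 3 genes, and 0.0% in the other comparisons. DESeq2 with batch as a covariate called 38 genes in Chronic, 9 in Acute and 0 in Chronic against Acute mice, none of them among the 10.

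The median log2 fold change of the 10 genes was 0.0038 in Acute and 0.0059 in Chronic against Water mice, beside 0.0011 and 0.0022 over all genes tested. The median size of the change, without its sign, was 0.032 in Acute and 0.061 in Chronic mice, beside 0.055 and 0.058 over all genes. The 10 genes did not share a direction, with 5 above and 5 below 0 in Acute and 6 above and 4 below 0 in Chronic mice.

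**Figure D1:**
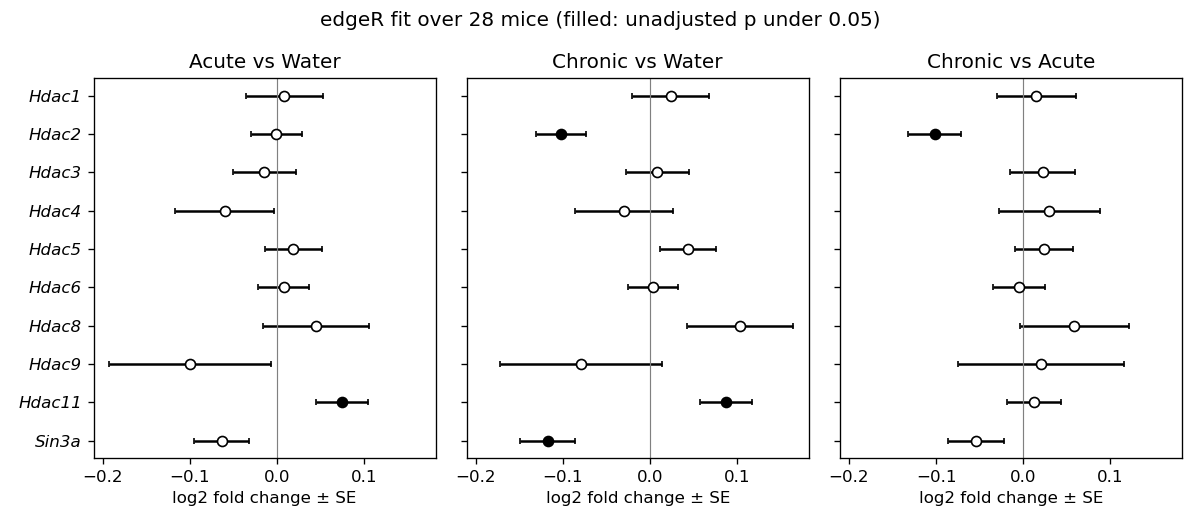
Log2 fold change of each gene (horizontal axis, edgeR fit over 28 mice with batch as a covariate, bars ± SE) in the 3 comparisons. Filled points have an unadjusted p under 0.05, which are *Hdac11* in Acute, *Hdac2*, *Hdac11* and *Sin3a* in Chronic, and *Hdac2* in Chronic against Acute mice, and no point has an adjusted p under 0.05.

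*Hdac2* encodes a class I deacetylase that is abundant in neurons. Its TMM-normalized counts had a lowest value of 1473, a median of 1638 and a highest of 1789 in the 10 Water mice. In the 9 Acute mice they ran from 1434 through a median of 1647 to 1765. In the 9 Chronic mice they ran from 1347 through 1491 to 1630.5. The Acute values covered nearly the same span as the Water values, while the Chronic values sat at the low end of both and still overlapped them.

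Water mice averaged 1620 ± 110 (SD, n = 10), Acute mice 1626 ± 102 (n = 9) and Chronic mice 1499 ± 87.2 (n = 9). With batch means removed, all 9 Chronic mice lay below the Water mean and 6 lay below every Water mouse, and all 9 lay below the Acute mean. The log2 fold change in Chronic against Water mice was -0.10 (SE 0.029, a difference of -6.83%), with an edgeR p of 0.00154, an adjusted p of 0.222 and an exact permutation p of 0.00102. Against Acute mice it was also -0.10 (SE 0.030, p = 0.00203, adjusted p = 0.998, exact permutation p = 0.00204). In Acute against Water mice it was -0.0004 (SE 0.029, p = 0.989). By edgeR p, *Hdac2* ranked 108 of 16266 genes in Chronic against Water mice. It ranked 15 in Chronic against Acute mice, where 4.44% of all genes had an unadjusted p under 0.05. Both comparisons of Chronic mice use the same 9 mice. Within batches, Chronic against Water mice differed by -0.11 (p = 0.0349, first batch) and -0.10 (p = 0.0268, second batch).

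*Sin3a* encodes the scaffold that holds HDAC1 and HDAC2 and is recruited by DNA-binding repressors. Its normalized counts were 820 at the lowest, 896 at the median and 949 at the highest in Water mice. Acute mice ran from 796 through 868 to 921, and Chronic mice from 769 through 808 to 899.8. Acute values sat between those of the other groups, and all 3 groups overlapped.

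Water mice averaged 897 ± 36.9, Acute mice 860.2 ± 40.2 and Chronic mice 825 ± 43.3 (SD, n = 10, 9 and 9). With batch means removed, all 9 Chronic mice lay below the Water mean and 6 lay below every Water mouse. The log2 fold change was -0.12 in Chronic mice (SE 0.031, a difference of -7.81%, edgeR p = 0.000836, adjusted p = 0.192, exact permutation p = 0.00118). In Acute mice it was -0.063 (SE 0.031, p = 0.0528, adjusted p = 0.529, exact permutation p = 0.0395), with 7 of 9 mice below the Water mean once batch means were removed. The step from Acute to Chronic mice was -0.054 (SE 0.032, p = 0.106, adjusted p = 0.998). Within batches, Chronic against Water mice differed by -0.11 in the first (p = 0.0536) and by -0.12 in the second (p = 0.0149).

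*Hdac11* encodes the sole class IV deacetylase and had the highest level per length of the 10. Its normalized counts in Water mice were 4624 at the lowest, 4893 at the median and 5318 at the highest. Acute mice ran from 4848 through 5054 to 5468, and Chronic mice from 4880 through 5246 to 5570. Both drinking groups sat toward the upper part of the Water range and overlapped it.

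Water mice averaged 4922 ± 226, Acute mice 5179 ± 232 and Chronic mice 5243 ± 242 (SD, n = 10, 9 and 9). After removal of batch means, all 9 mice of either drinking group lay above the Water mean, and 3 Acute and 4 Chronic mice lay above every Water mouse. The log2 fold change was 0.075 in Acute (SE 0.030, 5.33%, edgeR p = 0.0188, adjusted p = 0.468, exact permutation p = 0.0287) and 0.088 in Chronic mice (SE 0.030, 6.25%, p = 0.00697, adjusted p = 0.279, exact permutation p = 0.0110). Chronic and Acute mice differed by 0.013 (SE 0.031, p = 0.687). Within batches, Chronic against Water mice differed by 0.032 in the first (p = 0.592) and 0.12 in the second (p = 0.00381). In Acute mice the values were 0.054 (p = 0.328) and 0.088 (p = 0.0308).

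**Figure D2:**
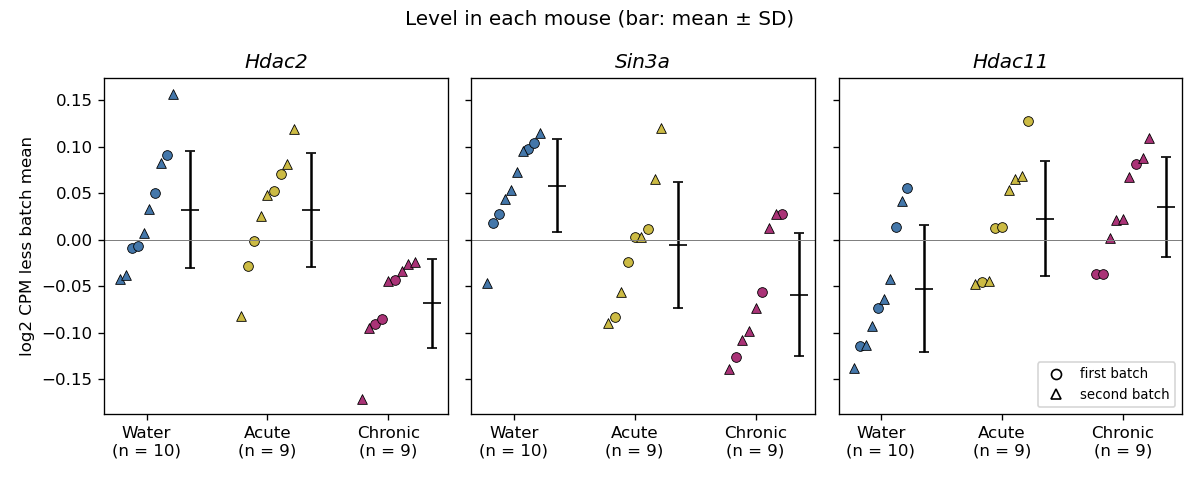
Log2 CPM of *Hdac2*, *Sin3a* and *Hdac11* less the batch mean (vertical axis) in each mouse, ordered by value within its group, with circles for the first batch and triangles for the second and bars for the mean ± SD. The 9 Chronic mice lie below the Water mean for *Hdac2* and *Sin3a* and above it for *Hdac11*, and the groups overlap in each panel.

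The 3 genes differ in base composition. The longest transcript of *Hdac2* is 41.9% GC, higher than 13.3% of the genes tested, that of *Sin3a* 48.3% and that of *Hdac11* 57.4%, higher than 88.5% of them. With offsets that removed each mouse's trend on GC content and length, the Chronic difference was 0.043 for *Hdac11* (p = 0.161), -0.075 for *Hdac2* (p = 0.0243) and -0.091 for *Sin3a* (p = 0.00927), and the Acute difference of *Hdac11* was 0.050 (p = 0.104). No adjusted p passed there either. The study's own order of steps, ComBat-seq batch adjustment followed by DESeq2, left the Chronic differences at -0.10 for *Hdac2* and -0.12 for *Sin3a* and gave adjusted p-values of 0.0390 and 0.0435, and 0.0992 for *Hdac11*. It was the sole alternative among those tried in which any of the 10 genes was called. In this run the batch adjustment was given the drinking groups, which the study does not describe. DESeq2 was then fitted without a batch term.

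**Figure D3:**
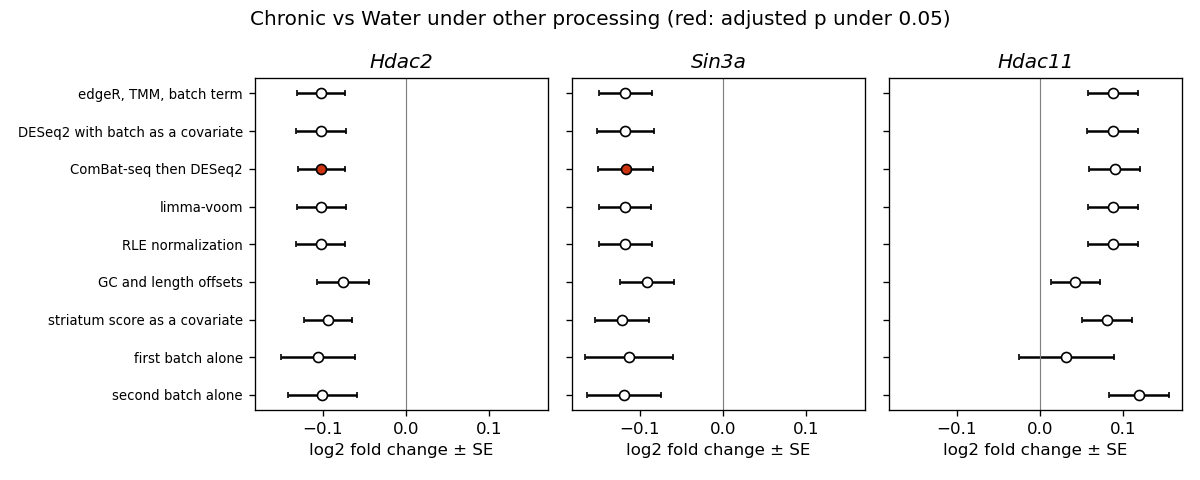
Log2 fold change ± SE of *Hdac2*, *Sin3a* and *Hdac11* in Chronic against Water mice (horizontal axis) under 9 ways of processing (vertical axis). The points of *Hdac2* and *Sin3a* stay below 0 and those of *Hdac11* above 0 throughout, and red points, with an adjusted p under 0.05, appear under ComBat-seq followed by DESeq2 for *Hdac2* and *Sin3a*.

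*Hdac2* lies on chromosome 10 (chr10:36974544-37001889, plus strand, GRCm38, GENCODE M21), *Sin3a* on chromosome 9 (chr9:57072040-57128366, plus strand) and *Hdac11* on chromosome 6 (chr6:91156665-91174692, plus strand). Annotated genes on the opposite strand overlap *Sin3a* (*2700012I20Rik* and *Man2c1os*) and *Hdac11* (*Gm14573* and *Gm44002*), and the sources used here do not say whether the counting used strand. The bases just before their starts are shown because these are the genes with the smallest p-values. They come from RefSeq (GRCm38.p6), which gave a promoter for 8 of the 10 genes. Capitals mark the GC box GGGCGG and the CCAAT box on either strand, which do not overlap in these windows.
Hdac2 promoter (chr10:36974294-36974543, plus strand): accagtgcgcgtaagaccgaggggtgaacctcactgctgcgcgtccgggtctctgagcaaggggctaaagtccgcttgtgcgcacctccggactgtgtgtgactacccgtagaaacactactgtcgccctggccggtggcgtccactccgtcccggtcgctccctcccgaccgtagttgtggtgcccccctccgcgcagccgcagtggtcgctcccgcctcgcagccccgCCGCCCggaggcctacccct
Sin3a promoter, upstream start (chr9:57071790-57072039, plus strand): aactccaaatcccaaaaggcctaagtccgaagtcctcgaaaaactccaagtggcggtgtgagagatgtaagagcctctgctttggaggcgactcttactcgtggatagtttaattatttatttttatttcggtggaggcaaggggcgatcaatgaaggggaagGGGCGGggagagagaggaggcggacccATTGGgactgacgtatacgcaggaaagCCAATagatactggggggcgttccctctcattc
Sin3a promoter, inner start (chr9:57076126-57076375, plus strand): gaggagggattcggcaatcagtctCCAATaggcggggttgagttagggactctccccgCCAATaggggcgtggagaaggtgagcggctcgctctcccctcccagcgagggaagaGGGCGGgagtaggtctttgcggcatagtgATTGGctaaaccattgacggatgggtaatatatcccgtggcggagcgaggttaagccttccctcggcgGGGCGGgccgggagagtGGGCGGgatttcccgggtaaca
Hdac11 promoter (chr6:91156565-91156664, plus strand): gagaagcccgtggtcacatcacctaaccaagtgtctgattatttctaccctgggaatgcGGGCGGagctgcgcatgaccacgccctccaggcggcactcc

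The inner *Sin3a* window lies within the gene, outside its annotated exons, and the *Hdac11* window was shortened to end before the first annotated exon. The *Hdac2* window holds 1 GC box, on the minus strand, and no CCAAT box. The upstream *Sin3a* window holds 1 GC box and 2 CCAAT boxes, and the inner window holds 3 of each. The *Hdac11* window holds 1 GC box. In the full RefSeq window of *Hdac11* a CCAAT box on the minus strand also lies 150 bases before the start, in the part not shown. Of 32851 RefSeq promoters, 32.7% hold the GC box and 33.8% the CCAAT box in the 250 bases before the start, and 10.5% and 13.6% in the first 100 of these. A match describes the letters and was not tested as a site.

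Of the other class I genes, *Hdac8*, the X-linked enzyme that deacetylates cohesin, was read from few counts. Its normalized counts ran from 141 through a median of 187 to 198 in Water mice. Acute mice spanned 149 through 185 to 225, and Chronic mice 179 through 189 to 206. The means were 180 ± 18.1, 187 ± 25.3 and 192 ± 9.39 (SD, n = 10, 9 and 9). On log2 CPM less the batch mean, all 9 Chronic mice lay above the Water mean, and the log2 fold change was 0.10 (SE 0.061, edgeR p = 0.100, adjusted p = 0.570). The exact permutation test of the same comparison gave p = 0.0109.

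*Hdac1*, the partner of *Hdac2*, had means of 491 ± 36.1, 495 ± 31.7 and 498 ± 31.8 in Water, Acute and Chronic mice. Its log2 fold changes were 0.0088 (SE 0.044, p = 0.844) in Acute and 0.024 (SE 0.044, p = 0.593) in Chronic mice. *Hdac3*, on chromosome 18, differed in scale between the batches, with 318 to 400 normalized counts (mean 361) in the first and 1483 to 1853 (mean 1663) in the second. That is a log2 ratio of 2.20 (adjusted p = 5.44e-30), larger than in 99.0% of the genes tested, of which 2.96% passed with a log2 ratio beyond 1, and the reason was not tested. Within batches the drinking groups were close, at 372 ± 20.5, 354 ± 25.1 and 355 ± 10.6 in the first (SD, n = 4, 4 and 3) and 1641 ± 99.2, 1660 ± 60.9 and 1689 ± 83.4 in the second (n = 6, 5 and 6). With batch as a covariate its log2 fold changes were -0.014 (SE 0.036, p = 0.699) in Acute and 0.0082 (SE 0.036, p = 0.823) in Chronic mice.

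The class IIa genes, which answer to calcium signals in neurons, gave no unadjusted p under 0.05 against Water mice. *Hdac4* averaged 971 ± 60.0 for Water, 932 ± 100.4 for Acute and 954 ± 91.8 for Chronic mice, with log2 fold changes of -0.060 (SE 0.056, p = 0.297) and -0.030 (SE 0.056, p = 0.599). In the first batch its 4 Acute mice (782 to 901) overlapped the 4 Water mice (876.5 to 1038) at the edge, a difference of -0.20 (p = 0.0072), while in the second batch Acute and Water mice differed by 0.046 (p = 0.539). The difference between the batches was 0.25 (p = 0.0277, adjusted p = 0.999), beside 4.13% of all genes at an unadjusted p under 0.05 in Acute mice and 0.0% past adjustment. For the Chronic effect these shares were 6.15% and 0.00615%, and none of the 10 genes was among them. *Hdac4* was the 1 of 20 tests of this kind over the 10 genes, in Acute and Chronic mice, that passed this threshold.

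*Hdac5* differed between batches too, with 2508 to 2890 normalized counts in the first and 3321 to 4053 in the second (log2 ratio 0.43, adjusted p = 2.01e-13). Batch differences passed the adjusted test for 5 of the 10 genes, which also include *Hdac2* (-0.14), *Hdac6* (0.10) and *Hdac8* (-0.16), beside 46.2% of all genes tested. The drinking differences of *Hdac5* were 0.019 (SE 0.032, p = 0.559) in Acute and 0.043 (SE 0.032, p = 0.190) in Chronic mice. *Hdac9* varied most between mice once batch means were removed, with 815 to 1520 normalized counts in Water mice, 855 to 1279 in Acute and 928 to 1307 in Chronic mice. Its differences were -0.100 (SE 0.093, p = 0.291) and -0.079 (SE 0.093, p = 0.401), with -0.046 and -0.013 under GC and length offsets, and -0.15 to -0.055 and -0.13 to -0.039 with 1 mouse left out. *Hdac6*, the tubulin deacetylase, had means of 1125 ± 50.8, 1129 ± 65.4 and 1133 ± 63.8, and differences of 0.0080 (SE 0.029, p = 0.787) and 0.0035 (SE 0.029, p = 0.904).

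Levels can be compared between genes per length, as normalized CPM per kilobase of exon. In Water mice *Hdac11* stood at 61.8 ± 2.83 (SD, n = 10), above 96.4% of the genes tested, and was above the other 9 genes in all 28 mice. *Hdac5* (17.7 ± 2.64), *Hdac2* (17.5 ± 1.19) and *Hdac3* (13.5 ± 7.86) came next and overlapped. Their order turned with the batch, since *Hdac2* was above *Hdac5* and *Hdac3* in all 11 mice of the first batch and below both in all 17 of the second. *Hdac3* was above *Hdac6* in all 17 mice of the second batch and in 0 of 11 of the first, where its Water mean was 4.43, so that its place by the mean over both batches holds in neither. *Hdac6* (9.35 ± 0.42) was above *Sin3a* (8.05 ± 0.33) in all 28 mice. *Sin3a* overlapped with *Hdac1* (6.88 ± 0.51) and was above it in 24 of 28 mice. *Hdac9* (3.94 ± 0.71) overlapped with *Hdac4* (2.97 ± 0.18), and *Hdac8* was lowest (1.80 ± 0.18), below *Hdac4* in all 28 mice. The order depends on the length used. Per kilobase of the longest transcript, the Water mean of *Hdac1* (11.6) was above those of *Hdac6* (10.8) and *Sin3a* (8.33). The means of *Hdac1*, *Hdac5* (28.7), *Hdac9* (7.28), *Hdac4* (5.79) and *Hdac8* (3.84) moved by more than 1.5 times, with the last 3 still the lowest.

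**Figure D4:**
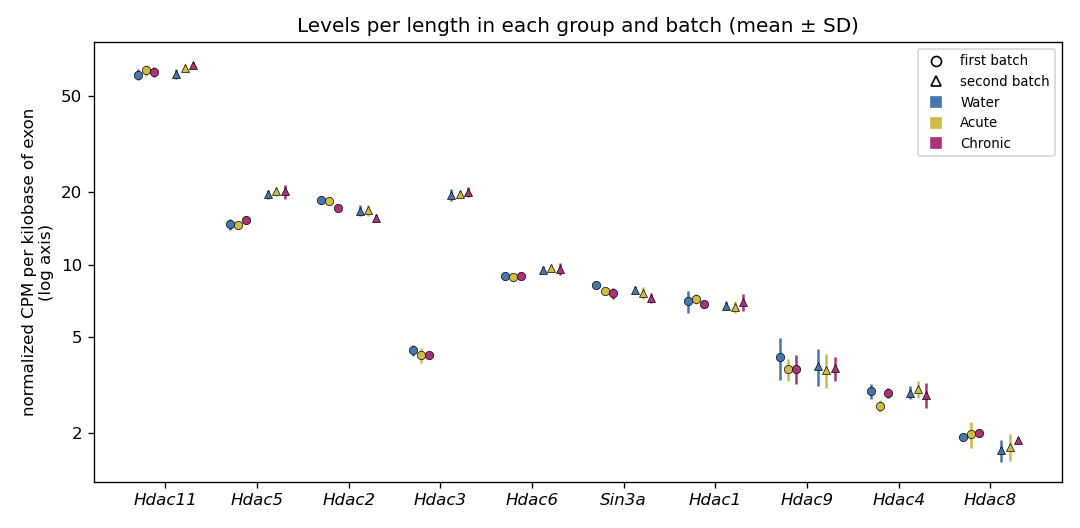
Normalized CPM per kilobase of exon (vertical axis, log scale, mean ± SD) of the 10 genes in each group (colours) and batch (circles first, triangles second). *Hdac11* lies above the others, *Hdac3* and *Hdac5* are higher in the second batch, and the groups of a gene lie close together within a batch.

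The 10 genes were also compared with marker scores of cell types and neighbouring tissue, 40 relations over 28 mice with batch means removed from both. Of these, 10 had an unadjusted permutation p under 0.05 and 5 an adjusted p under 0.05 for Pearson's r. *Hdac9* ran against the striatal score (r = -0.71, p = 4e-05, adjusted p = 0.0016, Spearman's rho = -0.67, p = 0.00026, adjusted p = 0.0104), with r = -0.62 without the 2 mice farthest from the median score, -0.82 within the first batch and -0.63 within the second. *Hdac1* did as well (r = -0.53, p = 0.00507, adjusted p = 0.0406, rho = -0.52, p = 0.00553, adjusted p = 0.0442, r = -0.56 without 2 mice, -0.34 and -0.71 in the batches). *Hdac9* also ran against the oligodendrocyte score (r = -0.54, p = 0.00288, adjusted p = 0.0406, rho = -0.54, p = 0.00491, adjusted p = 0.0442), with r = -0.44 without 2 mice, -0.85 within the first batch and -0.24 within the second.

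The relations of *Hdac4* with the oligodendrocyte score (r = -0.52, p = 0.00484, adjusted p = 0.0406) and of *Hdac11* with the pallial excitatory score (r = -0.53, p = 0.00354, adjusted p = 0.0406) were weaker by rank, at rho = -0.36 (p = 0.0724, adjusted p = 0.263) and -0.41 (p = 0.0305, adjusted p = 0.167). They came to r = -0.32 and -0.39 without 2 mice. Within the batches *Hdac4* gave -0.55 and -0.54, and *Hdac11* gave -0.78 and -0.33. *Hdac2* ran with the striatal score by rank (rho = 0.54, p = 0.00418, adjusted p = 0.0442, r = 0.44, p = 0.0171, adjusted p = 0.0855). Its r was 0.62 without 2 mice, 0.061 within the first batch and 0.71 within the second.

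**Figure D5:**
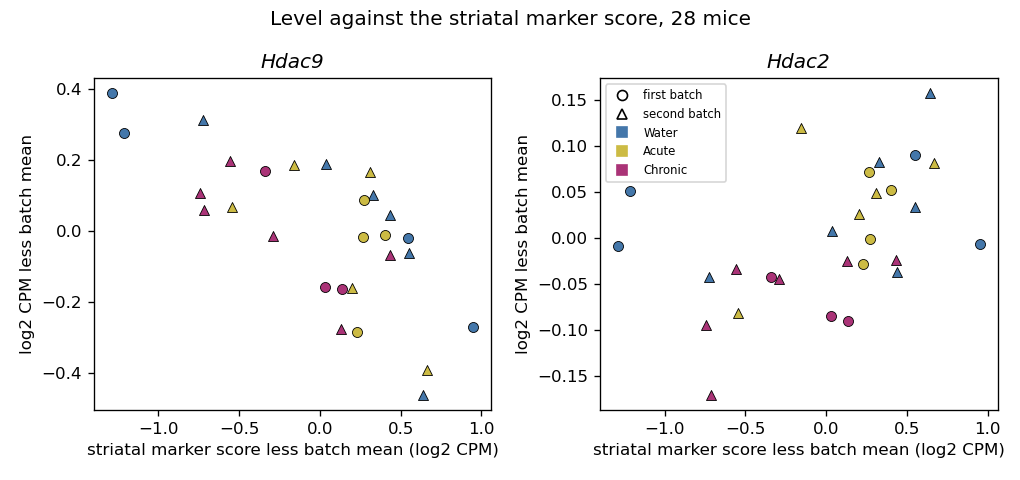
Log2 CPM of *Hdac9* and *Hdac2* (vertical axes) against the mean log2 CPM of 8 striatal markers (horizontal axes), each less its batch mean, for 28 mice in 3 groups (colours) and 2 batches (circles first, triangles second). *Hdac9* declines along the score with r = -0.71, and *Hdac2* increases with r = 0.44, by rank with rho = 0.54.

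The striatal score had a range of -0.74 to 0.43 for Chronic, -0.55 to 0.66 for Acute and -1.29 to 0.95 for Water mice. The Chronic score was 0.37 below the Acute score (a difference of -0.37, exact permutation p = 0.0565) and differed by -0.25 from Water (p = 0.428 by the exact test). Leaving out 1 mouse gave -0.45 to -0.28 against Acute mice, with an unadjusted exact p under 0.05 without Acute 1, Acute 5, Chronic 3 or Chronic 6, and -0.39 (without Water 42) to -0.14 (without Water 40) against Water mice. With this score as a further covariate, an alternative chosen after the data were seen, the Chronic differences of *Hdac2* were -0.094 against Water (p = 0.00272) and -0.087 against Acute mice (p = 0.00715). For *Hdac9* the Chronic difference from Water went from -0.079 (p = 0.401) to -0.13 (p = 0.0467) with the covariate, and the Acute difference from -0.100 to -0.043 (p = 0.508). *Sin3a* had r = -0.023 with the striatal score and a difference of -0.12 with the covariate (p = 0.000733). *Hdac11*, which oligodendrocytes express as well as neurons, had r = 0.20 with the oligodendrocyte score (p = 0.306, adjusted p = 0.622, rho = 0.10, p = 0.613, adjusted p = 0.887, r = -0.10 without 2 mice, 0.51 and -0.11 in the batches). That score, over 14 of 15 markers, had a range of -0.53 to 0.23 for Water, -0.20 to 0.59 for Acute and -0.23 to 0.28 for Chronic mice. It was 0.094 above Water in Acute (exact permutation p = 0.442) and 0.052 above Water in Chronic mice (exact permutation p = 0.598), and these came to 0.018 without Acute 33 and to 0.0026 without Water 43. Of its 14 markers, 12 had a log2 fold change above 0 in either drinking group, with medians of 0.12 and 0.051, and 0 had an unadjusted p under 0.05. The part of these markers in the *Hdac11* difference was not tested.

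The genes whose levels ran most like those of each of the 10 over the 28 mice, with batch means removed, are given as a description. For *Hdac2* they were *Zfp141* (r = 0.74), *Setdb2* (0.72) and *Nme7* (0.72), and for *Sin3a* *Ncapd3* (0.70), *Ewsr1* (0.69) and *Pole* (0.68). For *Hdac11* they were *Resp18* (0.87), *Podxl2* (0.87) and *Tmem179* (0.85), for *Hdac4* *Islr2* (0.82), *Prdm2* (0.81) and *Ralgps2* (0.81), and for *Hdac9* *Kcnj3* (0.80), *Rapgef5* (0.77) and *Arsb* (0.76). For *Hdac5* they were *Dab2ip* (0.76), *Rusc2* (0.75) and *Mvb12b* (0.74), for *Hdac3* *Dusp15* (0.72), *Aph1a* (0.65) and *Sugct* (0.62), and for *Hdac8* *Tmem17* (0.72), *Tfap4* (0.66) and *Taz* (0.63). For *Hdac1* they were *1700028E10Rik* (0.69), *Ehd4* (0.69) and *Larp1b* (0.68), and for *Hdac6* *Mapk8ip3* (0.67), *Ccnf* (0.66) and *Gm26549* (0.66). Among the 10 genes themselves, r ran from -0.40 between *Hdac11* and *Sin3a* to 0.53 between *Hdac5* and *Hdac11*.

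The other subunits and partners of these enzymes, 52 genes in 5 lists of which 50 were tested, gave no gene past the adjusted test of edgeR. At an unadjusted p under 0.05 there were 2 higher and 4 lower in Acute mice (12%), 1 higher and 3 lower in Chronic mice (8%), and 1 higher and 1 lower in Chronic against Acute mice (4%), beside 9.52%, 10.5% and 4.44% of all genes tested. Their median log2 fold change was 3.75e-05 in Acute and 0.00047 in Chronic mice. For single genes of these lists, the mice counted as higher or lower are those above or below the Water mean with batch means removed.

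Of 14 tested genes of the Sin3 complex, 1 was higher in Acute and 2 were lower in Chronic mice at that threshold, with medians of -0.0043 and -0.00051. *Rbbp4*, a histone-binding subunit, differed by 0.082 in Acute mice (p = 0.0138, adjusted p = 0.462, higher in 9 of 9), and *Suds3* by 0.058 (p = 0.0858). In Chronic mice *Arid4b* differed by -0.069 (p = 0.0485) and *Sap30* by -0.19 (p = 0.0497), each lower in 7 of 9. The sign of *Arid4b* turned between the batches (0.062 in the first and -0.15 in the second), and with GC and length offsets its difference was -0.010 and that of *Suds3* in Acute mice 0.11. Of 10 NuRD genes, *Mbd3* was higher in both drinking groups (0.076, p = 0.0394, 9 of 9 Acute mice, and 0.11, p = 0.00292, adjusted p = 0.241, 8 of 9 Chronic mice). *Gatad2b*, another NuRD subunit, was lower in all 9 Acute (-0.065, p = 0.0597) and all 9 Chronic mice (-0.084, p = 0.0174, adjusted p = 0.356). With offsets the differences of *Mbd3* were 0.035 in both groups, and those of *Gatad2b* were -0.015 in Acute and -0.029 in Chronic mice.

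Of 9 CoREST genes, 2 were lower in Acute mice at that threshold, *Rcor1* (-0.12, p = 0.0213, 8 of 9, with -0.21 in the first and -0.047 in the second batch) and *Zmym3* (-0.059, p = 0.0437, 7 of 9), and 0 in Chronic mice, where they differed by -0.094 (p = 0.0579) and -0.039 (p = 0.178). In the NCoR complex, which works with HDAC3, *Ncor1* was lower in all 9 Acute mice (-0.086, p = 0.0204, adjusted p = 0.474) and differed by -0.058 in Chronic mice (p = 0.110). *Tbl1xr1*, of the same complex, differed by -0.087 in Chronic mice (p = 0.0656). With offsets *Ncor1* came to -0.029 in Acute and -0.0065 in Chronic mice and *Tbl1xr1* to -0.014, and by batch *Ncor1* differed in Chronic mice by 0.0015 (first) and -0.092 (second). Of 12 tested partners of class IIa enzymes, *Sik2*, a kinase that keeps them in the cytoplasm, was lower in all 9 Acute mice (-0.19, p = 0.0218, adjusted p = 0.477), and 0 passed in Chronic mice. *Ywhab* differed by 0.047 in Acute mice (p = 0.0875), and *Ywhag* by 0.053 (p = 0.108) and *Mef2a* by -0.048 (p = 0.152) in Chronic mice. With offsets these last came to 0.030 and 0.0042, and in the first batch alone to 0.0089 and -0.0044.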

How the data were processed

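RNA of the amygdala of 28 female mice was sequenced in 2 batches. The authors quantified reads with Salmon 0.14.1 after FastQC 0.11.8 (submitters' processing notes) against GRCm38, summarized them by gene, and deposited whole-number counts per gene for each batch, without normalization or batch adjustment. Tables were joined on the gene identifier, keeping those that averaged 10 counts or more. Tests used edgeR 4.0.16 (R 4.3.3, quasi-likelihood, TMM, batch as a covariate, all groups, Benjamini-Hochberg over all genes, threshold 0.05). Exact two-sided tests permuted labels within batches on log2 CPM (prior count 2), over 32340 regroupings against Water (smallest p 3.09e-05) and 16170 between drinking groups. Correlations used 100000 permutations, adjusted over 40 relations. Simulated data over 16266 genes, with 100 genes changed by 0.25 and 100 by 0.5 (log2) in Chronic mice, gave 67 and 94 calls of these and 7 false calls. The changed genes averaged at least 100 counts. Changes as small as those of the 10 genes were not simulated. No duplicated library was found. Alternatives were DESeq2 1.42.0, ComBat-seq (sva 3.50.0) then DESeq2, limma-voom 3.58.1, RLE, filters at 0 and 100, each batch, offsets, a replicate block, only the groups compared, each mouse left out and, added later, the striatal score. Total counts set the counting error. The genes and lists were chosen with earlier results of these data known: all 10 genes, the 2 smallest p-values per list against Water, and the 3 most similar genes. A result for a gene this rule names is not reported here. The authors' cell type, network, qPCR and behavioral analyses were not used here.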

Additional observations from a re-analysis of the deposited data

Results flagged for a closer look

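Among the 30 combinations of gene and group, 4 held a mouse whose gap to its nearest neighbour, as a share of the group's range, was above Dixon's 95% value, where chance gives about 1 in 20. *Hdac2* in Chronic mouse 5 of the second batch (1347 normalized counts, gap 0.515 of the range) was lowest, and without it the Chronic difference from Water was -0.090 (edgeR p = 0.00441). *Hdac3* in Chronic mouse 1 of the second batch was highest (1853 normalized counts, gap 0.614), and without it the difference was -0.013 (p = 0.718). The same mouse was lowest for *Hdac6* (1032 normalized counts, gap 0.594), with a difference of 0.023 without it (p = 0.386). *Hdac8* in Water mouse 3 of the second batch was lowest (141 normalized counts, gap 0.505), and without it the Chronic difference was 0.073 (p = 0.218). The Acute difference of *Hdac4* was 0.2458 (log2) higher in the second batch than in the first by the interaction term, with an unadjusted p of 0.0277 and an adjusted p of 0.999.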

How the results depend on the processing

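*Hdac2* and *Sin3a* kept a negative Chronic difference from Water, and *Hdac11* a positive one, under all settings tried, and ComBat-seq then DESeq2 was the setting that called any of the 10 genes (2, in Chronic against Water mice). The genes at an unadjusted p under 0.05 in Acute mice were 2 with DESeq2, ComBat-seq then DESeq2, limma-voom, RLE normalization or a mean of at least 100 counts, and 0 with GC and length offsets, with or without the replicate block. In Chronic against Water mice they were 1 in the first batch alone. Leaving out 1 mouse gave 1 to 2 in Acute mice (2 without Water 42, Chronic 38, Water 1, Acute 1, Acute 5 or Chronic 2), 3 to 3 in Chronic and 1 to 1 in Chronic against Acute mice, and 0 to 0 called. DESeq2 called 1 other gene of the lists in Acute and 1 in Chronic mice.

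The sign turned in 15 of 30 log2 fold changes, in 29 combinations of a change and a setting, each with a main p of at least 0.297 and a size of at most 0.060, and the cause was not tested. In Acute against Water mice these were, in the second batch alone, *Hdac1* (-0.015), *Hdac2* (0.0064), *Hdac3* (0.017) and *Hdac4* (0.046), in the first, *Hdac5* (-0.012) and *Hdac6* (-0.018), with offsets *Hdac1* (-0.0095) and *Hdac2* (0.0068), with block and offsets -0.0071 and 0.011, and *Hdac2* without a filter (0.0061). In Chronic against Water mice they were *Hdac1* (-0.034) and *Hdac3* (-0.065) in the first batch and *Hdac6* with offsets (-0.0014), block and offsets (-0.0012) or the striatal score (-0.0044). In Chronic against Acute mice they were *Hdac1* (-0.070), *Hdac6* (0.019) and *Hdac11* (-0.023) in the first batch, *Hdac4* (-0.072) and *Hdac5* (-0.0037) in the second, *Hdac5* (-0.0087) and *Hdac11* (-0.0071) with offsets, -0.0089 and -0.0074 with block and offsets, *Hdac6* (0.0036) with ComBat-seq, and *Hdac1* (-0.020) and *Hdac9* (-0.091) with the striatal score. The correlation of *Hdac11* with the oligodendrocyte score was -0.11 in the second batch.

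Leaving out 1 mouse turned the sign of 10 log2 fold changes of size at most 0.030. In Acute mice the ranges were -0.0097 to 0.036 (*Hdac1*), -0.012 to 0.014 (*Hdac2*), -0.034 to 0.0032 (*Hdac3*) and -0.0052 to 0.018 (*Hdac6*). In Chronic mice they were -0.013 to 0.023 (*Hdac3*), -0.047 to 0.0041 (*Hdac4*) and -0.0064 to 0.023 (*Hdac6*), and against Acute mice -0.0069 to 0.033 (*Hdac1*), -0.014 to 0.015 (*Hdac6*) and -0.020 to 0.053 (*Hdac9*).

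Mouse numbers recur in the second batch. Its 16 pairs of mice with the same number correlated by -0.35 to 0.34 (median -0.0080) and its 80 pairs with different numbers by -0.36 to 0.42, and 1 of 17 mice correlated best with its own number. With these numbers as a replicate block, 1, 3 and 1 genes had an unadjusted p under 0.05 in the 3 comparisons, 0 were called, and *Hdac2* in Acute mice came to 0.0050. Counts were lowest for *Hdac8*, at 141 to 225 per mouse after normalization.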

Other observations

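Histone acetyltransferases, which add the groups that deacetylases remove, were lower in drinking mice at an unadjusted p under 0.05 in 2 of 9 tested genes in Acute and 4 of 9 in Chronic mice, and higher in 0 of 9 in both, beside 4.45% and 5.65% of all genes tested lower and 5.07% and 4.81% higher. Their median log2 fold change was -0.054 in Acute and -0.072 in Chronic mice. *Kat6a*, the enzyme also called MOZ, had 1443 ± 95.5 normalized counts in Water mice (SD, n = 10). With batch means removed it was lower in all 9 Acute mice by a log2 fold change of -0.15 (edgeR p = 0.000173, adjusted p = 0.194) and in all 9 Chronic mice by -0.16 (p = 7.59e-05, adjusted p = 0.157). DESeq2 called it in both (adjusted p = 0.0470 and 0.0172), and with GC and length offsets the differences were -0.085 and -0.099. The study lists *Kat6a* as lower in both drinking groups from these same mice, so its direction here is not independent evidence. *Ep300* differed by -0.11 in Acute mice (p = 0.0220, 8 of 9 lower) and *Kat6b* by -0.093 in Chronic mice (p = 0.0193, 9 of 9 lower), and with offsets by -0.055 and -0.044.

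Of the 9 deacetylases outside the 10 genes, sirtuins among them, 0 in Acute and 1 in Chronic mice had an unadjusted p under 0.05, beside 9.52% and 10.5% of all genes tested. That was *Sirt3*, the mitochondrial sirtuin, at 0.11 (p = 0.0286, adjusted p = 0.412, 8 of 9 higher), with 0.028 in the first and 0.17 in the second batch. In Acute mice *Sirt3* differed by 0.060 (p = 0.235), and *Sirt1* differed by -0.073 in Acute (p = 0.141) and -0.090 in Chronic mice (p = 0.0730). The Chronic difference of *Sirt1* was 0.0064 in the first and -0.15 in the second batch and -0.056 with offsets, and the Acute difference of *Sirt3* was -0.0062 in the first and 0.11 in the second batch.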
